A study of Mus musculus with 13 samples.

Results

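The genes Hmgcs1, Fdps, Fdft1, Sqle, Dhcr7, Srebf2 and Insig1 were examined in RNA-seq counts of mouse brain tumors and normal mouse brain. They were chosen by symbol from the 55416 genes of the count table, matched by Ensembl identifier to the GENCODE M21 annotation, which found 7 of 7. Of them, 6 passed the filter on low counts, as did 7722 genes of the whole table; Fdps did not. The genes had been grouped as cholesterol synthesis and uptake genes. By their known functions 5 are enzymes of synthesis, Srebf2 and Insig1 regulate synthesis, and none is a receptor or carrier of uptake, so uptake was read from a separate list. For 2 of the 7, Hmgcs1 and Fdft1, the gene that overlaps an exon on the opposite strand (Gm48342 and Ctsb) was read as well.

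PDGFB tumors (5 mice) had been induced with a lentivirus that carries PDGFB and a short hairpin RNA against p53, and RAS tumors (5 mice) with one that carries HRasV12 and a hairpin against p53. Both arose in motor cortex, in CNP-Cre mice whose Cre comes from the oligodendrocyte gene Cnp, and GFP-positive tumor tissue was taken at the clinical endpoint. The libraries are of dissected tissue, which can hold host cells as well. The normal brain samples (3, labelled WT) carry the letter M or F in their titles, which may stand for sex. If the letters do, the samples cannot all come from the same animal. The title of normal brain 3 begins with MBT, where the others begin with NBT. Their brain region and whether each comes from an animal of its own are not stated, nor is the age of any mouse. p-values that involve normal brain may therefore measure technical spread in part of that group. Libraries held 529162 to 643055 reads counted in genes, and 95.2% to 95.7% of uniquely mapped reads lay in no gene, so counts per gene were small. Levels are given as CPM, the reads of a gene per 1000000 gene reads of its library after scaling with TMM factors. In bulk tissue, fewer cells that express a gene and less RNA per cell cannot be told apart.

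The table has the form that counts of the strand opposite each gene's transcript would give, which bears on every value below. Of 52135 genes found in the annotation, the 43204 that have no exon of another gene opposite them held only 0.645% to 0.763% of a library's uniquely mapped reads. The 17.1% of these 52135 genes that have an exon opposite held 84.8% of their reads. Of the 20 annotated genes with the most reads 19 have an exon opposite, and the genes opposite include abundant housekeeping genes with few reads of their own. Tlcd1 had 67237 reads over all libraries, against 988 for the ribosomal protein gene Rpl23a opposite it, and Snx32 had 61192, against 1623 for the cofilin gene Cfl1. Of 22 ribosomal protein genes with an exon opposite, 15 had fewer reads than a gene opposite. Whether the kit marked strand and which strand was counted are not given in the sources used here. If the opposite strand was counted, the reads listed under Hmgcs1 and Fdft1 include those of the genes opposite them. The reads listed under Gm48342 and Ctsb would then include those of Hmgcs1 and Fdft1. Those listed under genes with none opposite, such as Sqle, Dhcr7, Srebf2, Insig1, Npc2, Abca1 and Apoe, would then be a small remainder and no direct measure of their transcripts. All levels and changes below, of marker genes too, are of reads listed under a gene.

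Animal cells build cholesterol from acetyl-CoA. Hmgcs1 makes HMG-CoA early in the pathway, and Fdps makes farnesyl diphosphate from later intermediates. Fdft1 (squalene synthase) joins farnesyl units to squalene, the first step that leads only to sterols, Sqle oxidises squalene, and Dhcr7 carries out a last reduction to cholesterol. When sterols are scarce, the transcription factor SREBP-2, the product of Srebf2, is cut from its membrane anchor and switches on these enzymes, Insig1 and Srebf2 itself; Insig1 protein holds the precursor in the endoplasmic reticulum when sterols are plentiful. The brain makes its own cholesterol, since lipoproteins of the blood do not cross the blood-brain barrier, and myelinating oligodendrocytes are a main site of that synthesis.

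Because these genes are known targets of SREBP-2, their promoters were read. RefSeq windows (build GRCm38.p6, 250 bases before to 50 after the transcription start) were held for 4 of the 7 genes: Hmgcs1, Dhcr7, Srebf2 and Insig1. A sterol regulatory element spelled TCACNCCAC, searched on both strands, occurred in 1 of the 4, Hmgcs1. It lay on the gene's strand with its first base 137 bases before the start. The element occurred in 1.24% of 32851 promoters of the same length, and in 1.44% of the 27025 genes they belong to. The CCAAT box, the motif bound by NF-Y, a partner of SREBP, occurred on either strand in a window of all 4. Counted the same way it occurred in 41.1% of the 27025 genes, and in 37.4% of all promoters. The 2 motifs did not overlap at any of these sites. The 250 bases before the start are shown for Hmgcs1, the gene that held both motifs (chr13:119690101-119690350), and for the regulators Srebf2 (chr15:82147019-82147268) and Insig1 (chr5:28071162-28071411), all on the plus strand. Capitals mark the CCAAT boxes, which read ATTGG on this strand, and in Hmgcs1 also the sterol regulatory element.
Hmgcs1: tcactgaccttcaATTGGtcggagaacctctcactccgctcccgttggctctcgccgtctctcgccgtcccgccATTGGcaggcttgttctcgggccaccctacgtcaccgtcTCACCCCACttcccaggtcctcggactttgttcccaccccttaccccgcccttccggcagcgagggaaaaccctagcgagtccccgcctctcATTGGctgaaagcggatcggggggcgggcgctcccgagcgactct
Srebf2: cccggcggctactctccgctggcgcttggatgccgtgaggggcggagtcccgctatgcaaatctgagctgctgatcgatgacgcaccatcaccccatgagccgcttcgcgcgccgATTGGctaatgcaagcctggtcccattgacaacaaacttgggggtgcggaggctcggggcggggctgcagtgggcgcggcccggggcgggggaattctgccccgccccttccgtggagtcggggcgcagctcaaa
Insig1: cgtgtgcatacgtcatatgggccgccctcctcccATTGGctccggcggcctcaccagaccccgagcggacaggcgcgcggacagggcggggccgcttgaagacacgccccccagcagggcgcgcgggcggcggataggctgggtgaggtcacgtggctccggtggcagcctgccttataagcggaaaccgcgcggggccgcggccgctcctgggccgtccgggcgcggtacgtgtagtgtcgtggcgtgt
Hmgcs1 thus held 3 CCAAT boxes before its start and the others 1 each. These matches describe letters only, and no binding was measured here.

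Among the 6 genes tested, reads listed under Sqle were higher in both kinds of tumor than in normal brain, Hmgcs1 was lower in RAS tumors, Dhcr7 was higher in RAS tumors, Fdft1 was higher in RAS tumors and lower in PDGFB tumors, and Srebf2 and Insig1 passed no test. Calls below are genes with a Benjamini-Hochberg adjusted p under 0.05 in edgeR's two-sided quasi-likelihood test over all 7722 genes, and changes are log2 fold changes ± SE. In PDGFB tumors against normal brain 2 of the 6 were called (1 higher, 1 lower), where 45.3% of all genes tested were called. In RAS tumors against normal brain 4 of the 6 were called (3 higher, 1 lower), against 56.2% of all genes. Between PDGFB and RAS tumors 2 of the 6 were called (1 higher and 1 lower in PDGFB), against 32.1%. The groups did not overlap in CPM for 2 of the 6 genes in PDGFB tumors against normal brain (50.7% of all genes tested), for 4 in RAS tumors against normal brain (52.4%) and for 2 between the tumors (19.7%). With so few genes, counts this close to the background set the genes apart in no comparison. The 2 comparisons with normal brain share their 3 normal libraries.

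**Figure D1:**
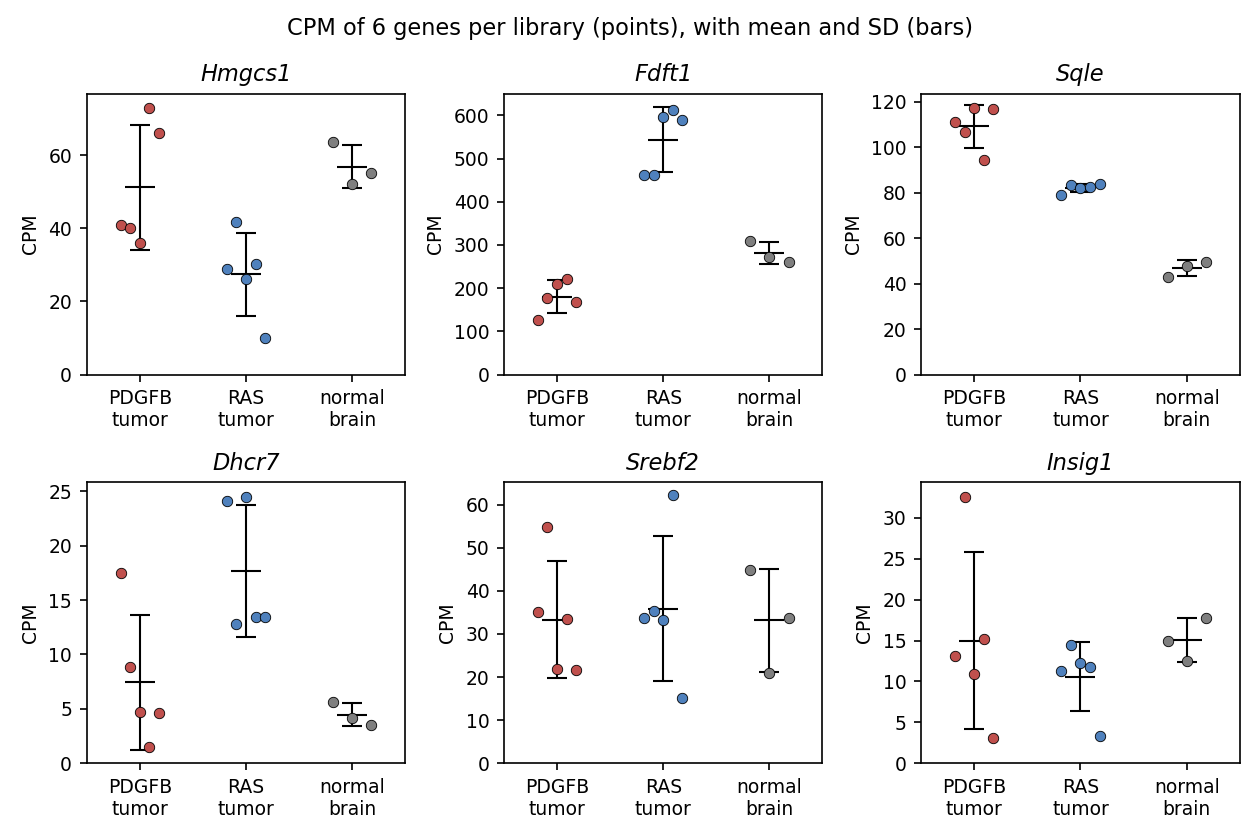
CPM (y axis, linear, from 0) of 6 genes in each library of PDGFB tumors, RAS tumors and normal brain; points are libraries, long bars the mean and short bars 1 SD. Sqle separates the 3 groups without overlap, Fdft1 is highest in RAS tumors, and the groups overlap for Srebf2 and Insig1.

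Hmgcs1 (ENSMUSG00000093930, GRCm38 chr13:119690379-119708260, plus strand), the synthase at the head of the pathway, had 28, 27, 23, 48 and 43 reads in the PDGFB tumors, 18, 26, 15, 18 and 6 in the RAS tumors and 34, 25 and 31 in normal brain. It averaged 51.2 ± 17.0 CPM in PDGFB tumors, 27.4 ± 11.4 CPM in RAS tumors (SD, n = 5 each) and 56.9 ± 5.95 CPM in normal brain (n = 3). Every RAS tumor lay under every normal brain, and RAS and PDGFB tumors overlapped. The gene fell 2.07-fold in RAS tumors against normal brain (log2 fold change −1.05 ± 0.35, adjusted p = 0.0180, edgeR), a call that did not hold with normal brain 1 left out (adjusted p = 0.0876) or with normal brain 3 left out (0.0561). It was 1.85-fold higher in PDGFB than in RAS tumors (0.89 ± 0.31, adjusted p = 0.0366), a call lost when only the tumors were fitted (adjusted p = 0.0521), with replicate number as a block (0.0872) and without PDGFB tumor 4 or 5 or RAS tumor 1, 3, 4 or 5 (0.0503 to 0.0964). Its value in PDGFB tumors against normal brain was −0.16 ± 0.34 (adjusted p = 0.733).

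Gm48342 (ENSMUSG00000114934, chr13:119698360-119704549, minus strand), annotated as an antisense gene, lies within Hmgcs1 on the other strand. Its exons overlap 557 bases of Hmgcs1 exons in 2 stretches, of 458 and 99 bases, which are coding sequence of Hmgcs1 but for 10 bases; that is 12.1% of the exon bases of Hmgcs1 and 29.3% of those of Gm48342. It had 964, 896, 897, 1213 and 884 reads in PDGFB tumors, 521, 688, 270, 320 and 139 in RAS tumors and 1134, 1086 and 1137 in normal brain, 17.8 to 43.4 times the reads of Hmgcs1 in the same library. The row fell 3.35-fold in RAS tumors against normal brain (log2 fold change −1.75 ± 0.31, adjusted p = 1.45e-04, edgeR) and was 2.30-fold higher in PDGFB than in RAS tumors (1.20 ± 0.28, adjusted p = 0.0033). Its PDGFB tumors all lay under normal brain without passing the test (−0.54 ± 0.31, adjusted p = 0.167). With only these groups fitted in edgeR the difference was called (−0.42 ± 0.13, adjusted p = 0.00839). Hmgcs1 and Gm48342 thus moved in the same direction in the 2 comparisons that called them. With the reads of both rows added the log2 fold change was −1.72 in RAS tumors against normal brain (adjusted p = 1.57e-04) and 1.19 in PDGFB against RAS tumors (0.00336). Nearly all reads of that sum are listed under Gm48342. These values, counted below among the alternatives of Hmgcs1, are therefore mostly those of the Gm48342 row. If the opposite strand was counted, that row includes reads of Hmgcs1 transcripts, and their share was not tested. With the counted strand not given, reads of the 2 genes cannot be told apart.

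Fdps (ENSMUSG00000059743, chr3:89093588-89101959, minus strand), farnesyl diphosphate synthase, had 2, 2, 0, 0 and 0 reads in PDGFB tumors, the same in RAS tumors, and 1, 0 and 0 in normal brain. It was too low to test and no difference was detectable at this depth. Of its exon bases 26.7% are also exon of Gm43738 on the same strand, where a read can count as ambiguous and go to neither.

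Fdft1 (ENSMUSG00000021273, chr14:63145150-63179578, minus strand), squalene synthase, had 86, 119, 135, 145 and 110 reads in PDGFB tumors, 287, 289, 341, 364 and 351 in RAS tumors and 166, 131 and 147 in normal brain. The means were 180 ± 37.6 CPM in PDGFB tumors, 544 ± 75.4 CPM in RAS tumors and 281 ± 25.7 CPM in normal brain. The 3 groups did not overlap in CPM, with RAS tumors at the top and PDGFB tumors at the bottom. In RAS tumors it rose 1.93-fold against normal brain (log2 fold change 0.95 ± 0.21, adjusted p = 8.42e-04, edgeR), and PDGFB tumors were 3.01-fold lower than RAS tumors (−1.59 ± 0.18, adjusted p = 5.51e-06). In PDGFB tumors it fell 1.56-fold against normal brain (−0.64 ± 0.20, adjusted p = 0.0144). That last call depended on scale and library: it was lost with library totals in place of TMM factors (adjusted p = 0.0907), with no filter or a looser one on low counts (0.158 and 0.0987) and without normal brain 1, 2 or 3 (0.150, 0.0789 and 0.0618).

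Ctsb (ENSMUSG00000021939, chr14:63122462-63145923, plus strand), which encodes the lysosomal protease cathepsin B, ends opposite the end of Fdft1. The 774 shared bases (chr14:63145150-63145923) are untranslated in both genes and make up 18.3% of the exon bases of Fdft1 and 12.8% of those of Ctsb. The Ctsb row had 84, 70, 50, 63 and 57 reads in PDGFB tumors, 214, 212, 147, 230 and 189 in RAS tumors and 55, 39 and 54 in normal brain. It rose 3.51-fold in RAS tumors against normal brain (log2 fold change 1.81 ± 0.23, adjusted p = 5.25e-06, edgeR) and was 3.36-fold lower in PDGFB than in RAS tumors (−1.75 ± 0.18, adjusted p = 3.06e-06). Against normal brain its PDGFB value was 0.06 ± 0.22 (adjusted p = 0.835). The Fdft1 row held 1.02 to 2.7 times the reads of the Ctsb row in PDGFB tumors, 1.34 to 2.32 times in RAS tumors and 2.72 to 3.36 times in normal brain. With both rows added, the log2 fold changes were 1.22 in RAS tumors against normal brain (adjusted p = 1.34e-05), −1.65 in PDGFB against RAS tumors (5.75e-07) and −0.43 in PDGFB tumors against normal brain (0.0364). Here too the reads of the 2 genes cannot be told apart.

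**Figure D2:**
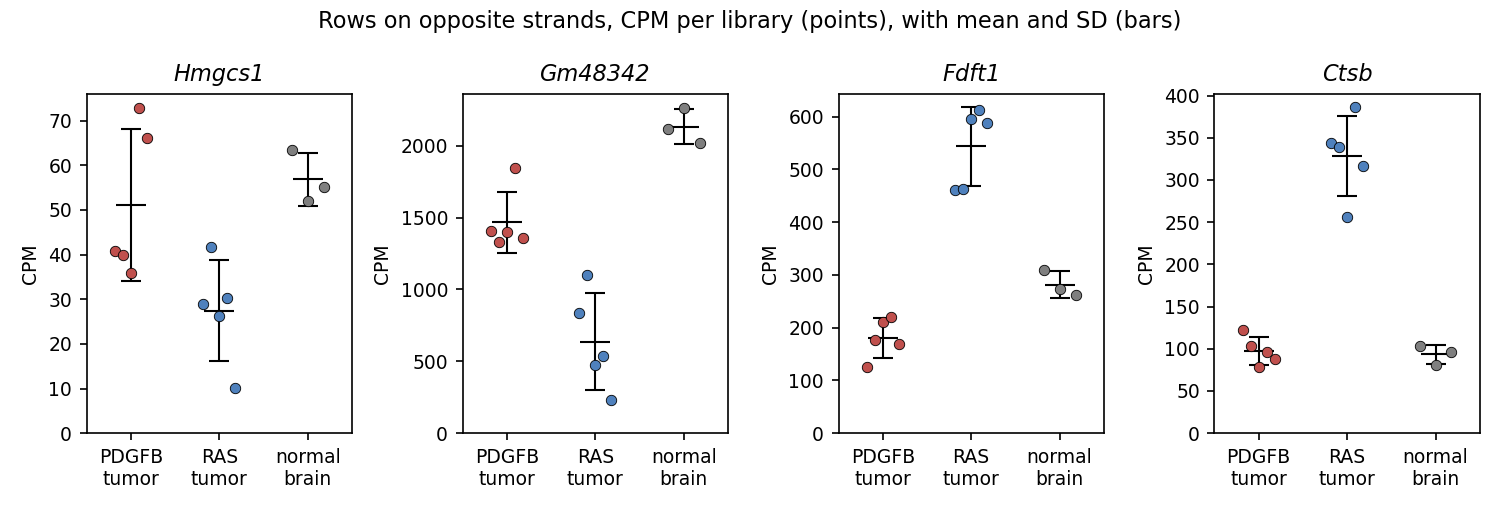
CPM (y axis, linear, from 0, a scale of its own in each panel) of Hmgcs1 and of Gm48342 opposite it, and of Fdft1 and of Ctsb opposite it, in each library of PDGFB tumors, RAS tumors and normal brain; points are libraries, long bars the mean and short bars 1 SD. Gm48342 stands far above Hmgcs1 and both are lowest on average in RAS tumors, while Fdft1 and Ctsb are both highest in RAS tumors.

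Sqle (ENSMUSG00000022351, chr15:59315077-59331192, plus strand), squalene epoxidase, which carries out a rate-limiting oxidation, has no exon opposite it. It had 76, 72, 75, 62 and 76 reads in PDGFB tumors, 49, 52, 47, 49 and 50 in RAS tumors and 23, 23 and 28 in normal brain, or 109 ± 9.44, 82.0 ± 1.95 and 46.9 ± 3.49 CPM. No CPM value of one group fell in the range of another, and both tumor groups lay above normal brain. Sqle rose 2.32-fold in PDGFB tumors (log2 fold change 1.21 ± 0.22, adjusted p = 2.64e-04, edgeR) and 1.75-fold in RAS tumors (0.80 ± 0.22, adjusted p = 0.00462) against normal brain. Both calls held under all 21 alternatives run, with adjusted p up to 0.00212 and 0.0472. Between the tumors the log2 fold change was 0.41 ± 0.17 (unadjusted 95% interval 0.04 to 0.78) and did not pass (adjusted p = 0.0819); with library totals in place of TMM factors it was called (0.55, adjusted p = 0.0224).

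Dhcr7 (ENSMUSG00000058454, chr7:143823145-143848410, plus strand), the reductase that ends one branch of the pathway, had 12, 6, 3, 1 and 3 reads in PDGFB tumors, 15, 8, 14, 8 and 8 in RAS tumors and 3, 2 and 2 in normal brain. The means were 7.44 ± 6.21 CPM in PDGFB tumors, 17.6 ± 6.06 CPM in RAS tumors and 4.44 ± 1.05 CPM in normal brain. Every RAS tumor lay above every normal brain, and PDGFB tumors overlapped both groups. It rose 3.84-fold in RAS tumors against normal brain (log2 fold change 1.94 ± 0.65, adjusted p = 0.0164, edgeR), a call lost without normal brain 3 (adjusted p = 0.0563). With 2 or 3 reads in normal brain, Dhcr7 passed the low-count filter only through tumor libraries, which favoured this direction. It was tested in only 10 of the 13 fits with 1 library left out. PDGFB tumors gave 0.73 ± 0.70 against normal brain (adjusted p = 0.412) and −1.21 ± 0.47 against RAS tumors (interval −2.20 to −0.21, adjusted p = 0.0591); the second was called without RAS tumor 2 (adjusted p = 0.0383) and in limma-voom (0.0272).

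The 2 regulators did not pass in any comparison, with wide intervals. Srebf2 (ENSMUSG00000022463, chr15:82147181-82205379, plus strand) had 24, 37, 14, 22 and 14 reads in PDGFB tumors, 21, 22, 19, 37 and 9 in RAS tumors and 24, 10 and 19 in normal brain. Its means were 33.3 ± 13.6 CPM in PDGFB tumors, 35.9 ± 16.9 CPM in RAS tumors and 33.1 ± 12.02 CPM in normal brain, close to one another with ranges that overlapped. The 95% intervals of its log2 fold changes ran from −0.87 to 0.88 (PDGFB against normal), −0.77 to 0.97 (RAS against normal) and −0.83 to 0.63 (PDGFB against RAS), with adjusted p = 0.997, 0.847 and 0.848 in edgeR. Insig1 (ENSMUSG00000045294, chr5:28071363-28078662, plus strand) had 9, 22, 7, 10 and 2 reads in PDGFB tumors, 7, 9, 7, 7 and 2 in RAS tumors and 8, 6 and 10 in normal brain. Its intervals, −1.15 to 1.13, −1.70 to 0.69 and −0.51 to 1.51 in the same order, leave room for changes of more than 1 log2 unit (adjusted p = 0.989, 0.466 and 0.461). These p-values do not show that either gene kept its level.

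**Figure D3:**
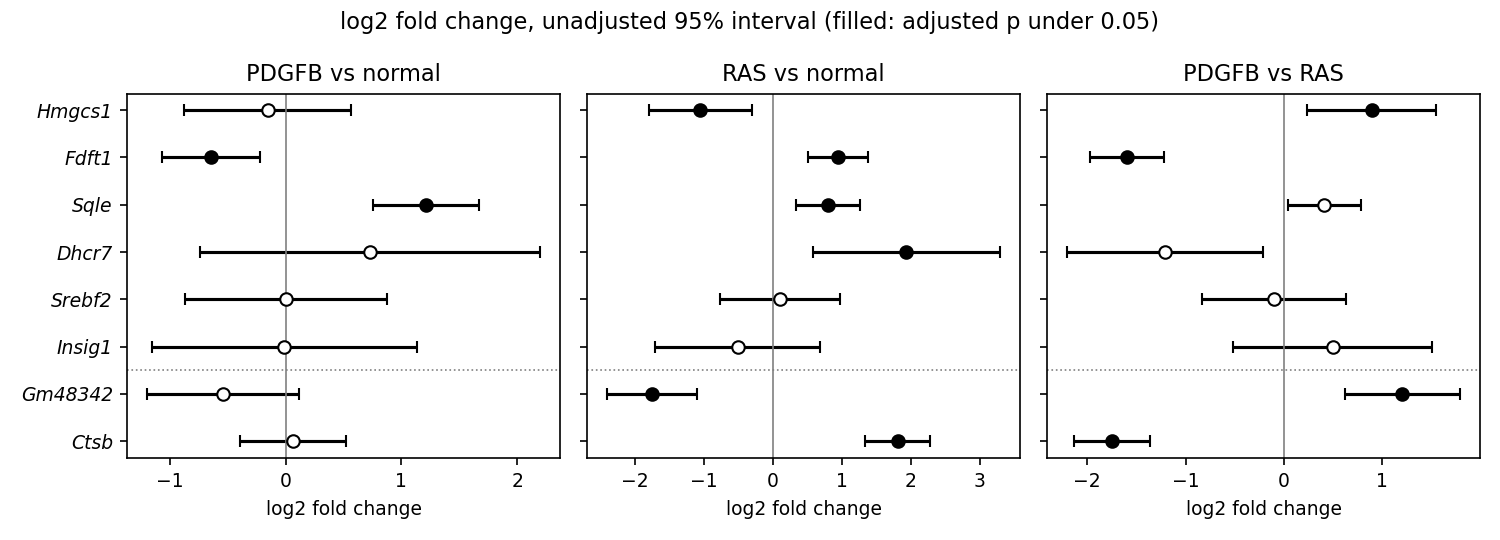
Log2 fold changes (x axis) with unadjusted 95% intervals for the 6 genes tested and, under the dotted line, Gm48342 and Ctsb, in the 3 comparisons; filled points passed an adjusted p under 0.05. Sqle lies to the right of 0 in both comparisons with normal brain, and the intervals of Srebf2 and Insig1 cross 0 in all 3.

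Levels of different genes were compared per kb of exon, where the part of reads from the genes opposite Fdft1 and Hmgcs1 was not tested. In PDGFB tumors Fdft1 had the highest level of the 7 at 42.7 ± 8.91 CPM per kb, followed by Sqle at 19.7 ± 1.70, Hmgcs1 at 11.1 ± 3.71, Insig1 at 4.84 ± 3.51, Srebf2 at 4.64 ± 1.89, Dhcr7 at 1.28 ± 1.07 and Fdps at 0.28 ± 0.38. Ranges overlapped between Hmgcs1 and Insig1, between Insig1 and Srebf2, between Srebf2 and Dhcr7 and between Dhcr7 and Fdps. RAS tumors had Fdft1 at 129 ± 17.8 and Sqle at 14.8 ± 0.35 CPM per kb, and then Hmgcs1 (5.97 ± 2.47), Srebf2 (4.996 ± 2.35), Insig1 (3.43 ± 1.37) and Dhcr7 (3.03 ± 1.04), a run in which each neighbour's range overlapped the next. Normal brain had Fdft1 (66.5 ± 6.07), Hmgcs1 (12.4 ± 1.30) and Sqle (8.45 ± 0.63) apart from one another, and Insig1 (4.87 ± 0.85) and Srebf2 (4.61 ± 1.67) overlapping. Sqle therefore stood above Hmgcs1 per kb in every tumor and below it in every normal brain. Summed over 13 enzymes of synthesis with no exon opposite, the level was 141 to 195 CPM in PDGFB tumors, 157 to 188 CPM in RAS tumors and 115 to 142 CPM in normal brain. Without Sqle the same sum was 47.1 to 78.4, 73.7 to 109 and 66.6 to 99.0 CPM. With Sqle only RAS tumors and normal brain lay apart, and without it all 3 groups overlapped.

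For each tested gene the pair of genes with the most similar log2 CPM over the 13 libraries was taken, as a description, since the libraries share their groups. Sqle was most like Mfsd11 and Exosc9 (Pearson's r = 0.97 for both), which lie opposite the splicing factor gene Srsf2 and the cyclin A gene Ccna2. Fdft1 was most like the ferritin heavy chain gene Fth1 (0.95) and Ubxn11 (0.94, opposite Sh3bgrl3), and Hmgcs1 most like Traf3ip2 (0.93, opposite E130307A14Rik) and AC164647.1 (0.92, opposite Wrb). Dhcr7 was most like the heparan sulfate polymerase gene Ext2 (0.95) and Cd24a (0.89). The regulators had looser matches, Tnrc6b (0.82) and Cerk (0.79, opposite Gm15569) for Srebf2, and the Notch target Hey1 (0.83) and Pip4k2c (0.81, opposite F420014N23Rik) for Insig1.

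The rest of the pathway was read from 5 lists with 58 genes. Of all genes tested, 20.2% were called higher and 25.1% lower in PDGFB tumors against normal brain, 26.9% and 29.3% in RAS tumors against normal brain, and 14.6% and 17.4% in PDGFB against RAS tumors, with medians of all log2 fold changes within 0.03 of 0. In the mevalonate list 2 of 8 genes could be tested, and Hmgcs1 gave its only calls (medians −0.50, −0.77 and 0.26 in that order). In the sterol branch from squalene on, 6 of 13 could be tested and Sqle, Fdft1 and Dhcr7 gave all calls (medians 0.04, 0.78 and −0.47). The remaining enzymes of both lists were too low to test or were not called.

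In the list of SREBP regulation 7 of 12 genes could be tested, with 1 higher in PDGFB tumors and 2 higher in RAS tumors against normal brain and 0 called between the tumors (medians 0.33, 0.23 and −0.04). That 0 was from edgeR, and it was also 0 at an unadjusted p under 0.05, in DESeq2 and in limma-voom. Mbtps1 encodes the site-1 protease that makes the first cut in SREBP. It averaged 23.1 ± 10.2 CPM in PDGFB tumors, 30.5 ± 7.81 CPM in RAS tumors and 9.92 ± 5.43 CPM in normal brain, and rose in RAS tumors against normal brain (log2 fold change 1.58, adjusted p = 0.00916, edgeR). At these levels Mbtps1 passed the low-count filter only through tumors, which favoured a rise. Its PDGFB value against normal brain was 1.18 (adjusted p = 0.0535) and was called under 13 of 21 alternatives. Rnf139, the sterol-sensing ubiquitin ligase TRC8, rose in PDGFB tumors (0.87, adjusted p = 0.00621) and in RAS tumors (0.91, 0.00339) against normal brain, but lies opposite Tatdn1.

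In the list of uptake and lysosomal release 8 of 12 genes could be tested, with 1 higher and 1 lower in PDGFB tumors, 3 higher and 1 lower in RAS tumors against normal brain, and 1 higher and 3 lower in PDGFB against RAS tumors (medians 0.25, −0.02 and −0.08). Npc2, the soluble protein that hands cholesterol to Npc1 in the lysosome, had 25 to 34 reads in PDGFB tumors, 90 to 134 in RAS tumors and 4 to 10 in normal brain, with no overlap between groups. Npc2 thus passed the low-count filter only through tumors, which favoured a rise against normal brain. It rose 11.4-fold in RAS tumors against normal brain (log2 fold change 3.51 ± 0.32, adjusted p = 2.66e-07, edgeR) and less in PDGFB tumors (1.51 ± 0.32, adjusted p = 0.00112), and the tumors differed (−2.003 ± 0.23 in PDGFB against RAS, adjusted p = 6.74e-06). Npc1, its membrane partner, rose in RAS tumors (1.25, adjusted p = 3.76e-04) and was lower in PDGFB than in RAS tumors (−1.06, 7.60e-04), but lies opposite Rmc1 and Gm15956. The lipoprotein receptor gene Lrp1 rose in RAS tumors against normal brain (1.24, adjusted p = 0.00174). Between the tumors Lrp1 (−0.65, adjusted p = 0.0423) lost its call under 17 of 22 alternatives and the apolipoprotein E receptor gene Lrp8 (1.30, 0.0330) under 6 of 20. Lrp8 averaged 18.9 CPM in PDGFB tumors, 7.51 CPM in RAS tumors and 15.2 CPM in normal brain, so the filter may have favoured its direction. Gramd1b, a carrier of sterol from the plasma membrane, fell in PDGFB tumors (−1.88, adjusted p = 5.38e-04) and in RAS tumors (−1.57, 0.00137) against normal brain, and lies opposite 1700110K17Rik and Gm17540. Its mean was 9.32 CPM in PDGFB tumors, 11.7 CPM in RAS tumors and 35.0 CPM in normal brain. The low-count filter may therefore have favoured a fall.

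In the list of efflux, storage and oxysterols 6 of 13 genes could be tested, and of these 1 was higher and 2 lower in PDGFB tumors against normal brain, 4 were higher and 2 lower in RAS tumors against normal brain, and 3 were lower in PDGFB than in RAS tumors (medians 0.04, 1.35 and −0.76 in the order used above). Abca1, which exports cholesterol to apolipoproteins, had 13 to 31 reads in PDGFB tumors, 15 to 33 in RAS tumors and 0 to 5 in normal brain. It thus passed the low-count filter only through tumors, which favoured a rise. It rose in both tumors against normal brain (log2 fold change 2.88 ± 0.57 in PDGFB, adjusted p = 6.34e-04; 3.13 ± 0.57 in RAS, 1.73e-04, edgeR). Apoe, which encodes the main apolipoprotein of brain, averaged 214 ± 37.0 CPM in PDGFB tumors, 816 ± 451 CPM in RAS tumors and 339 ± 55.0 CPM in normal brain. It rose in RAS tumors against normal brain (1.27 ± 0.33, adjusted p = 0.00349) and was lower in PDGFB than in RAS tumors (−1.93 ± 0.28, 7.63e-05). Soat1, which stores cholesterol as esters, rose in RAS tumors (2.25 ± 0.53, adjusted p = 0.00157) and was lower in PDGFB than in RAS tumors (−1.35, 0.0120). Its mean was 9.71 CPM in PDGFB tumors, 24.9 CPM in RAS tumors and 4.99 CPM in normal brain. Soat1 thus passed the low-count filter only through tumors, which favoured a rise. The lipocalin gene Apod rose in RAS tumors (1.43, adjusted p = 0.0162), a call lost without normal brain 2 (0.0626) and in limma-voom (0.0527). Cyp46a1, the neuronal enzyme that makes 24-hydroxycholesterol, had 0 to 2 reads in PDGFB tumors, 0 to 4 in RAS tumors and 11 to 18 in normal brain. It thus passed the low-count filter only through normal brain, which favoured a fall. Its log2 fold change against normal brain was −3.68 ± 0.64 in PDGFB tumors (adjusted p = 2.08e-04, edgeR) and −3.35 ± 0.63 in RAS tumors (2.48e-04). The apolipoprotein J gene Clu fell in PDGFB tumors (−2.07 ± 0.34, adjusted p = 1.10e-04) and in RAS tumors (−1.24, 0.00389) against normal brain; its call between the tumors (−0.84, 0.0487) was lost under 18 of 22 alternatives.

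**Figure D4:**
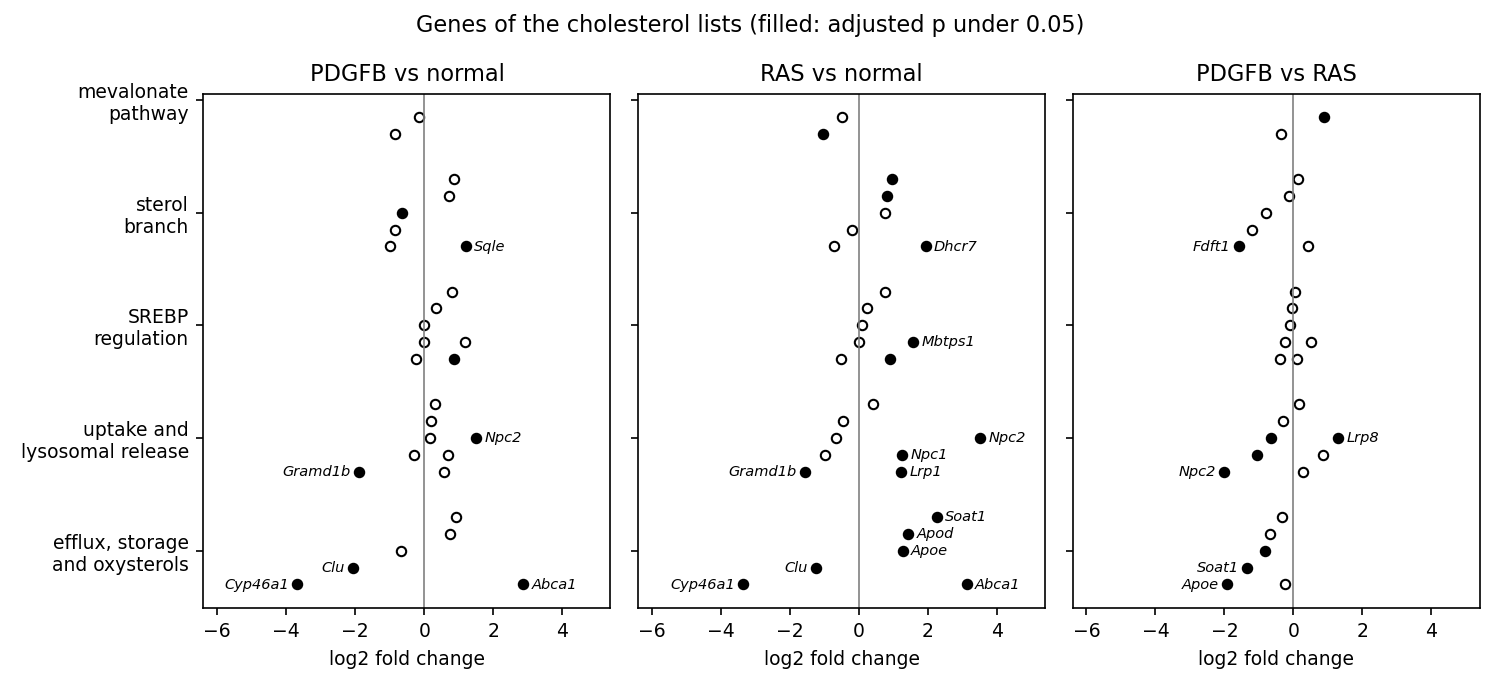
Log2 fold changes (x axis) of the genes tested in 5 cholesterol lists (rows, points spread down the page only to separate them) in the 3 comparisons; filled points passed an adjusted p under 0.05. The filled points of the enzyme lists are few, all 6 genes of the efflux list are filled in RAS against normal brain, and the 2 points furthest to the right are Npc2 and Abca1 in RAS against normal brain.

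Markers of cell types moved with these groups, and their part in the results was not tested. Some passed the low-count filter only through groups where they were high, which favoured the direction of their calls. Cspg4 averaged 0.69 CPM and Pcdh15 1.32 CPM in normal brain, and Mag 1.80 CPM in PDGFB and 3.55 CPM in RAS tumors. Of all genes tested, 20.2% were called higher and 25.1% lower in PDGFB tumors against normal brain, and 26.9% and 29.3% in RAS tumors. The summed level of 10 mature oligodendrocyte markers was 137 to 223 CPM in PDGFB tumors, 75.6 to 336 CPM in RAS tumors and 1131 to 1754 CPM in normal brain, with Opalin at 0 in every RAS tumor; of the 6 tested, 4 fell in PDGFB and 6 in RAS tumors. Over 10 neuron markers the sum was 329 to 673, 3906 to 9041 and 6076 to 6513 CPM in the same order. Most of it in RAS tumors and normal brain was Nefm, which averaged 256, 5207 and 4545 CPM in that order. Over the 7 neuron markers with no exon opposite the sum was 78.9 to 245, 33.8 to 307 and 1401 to 1527 CPM. Of the 10, 9 fell in PDGFB and 8 in RAS tumors. Over 8 astrocyte markers the sum was 191 to 471, 120 to 640 and 683 to 872 CPM, and 3 of the 7 tested fell in each kind of tumor. Over 7 oligodendrocyte precursor markers it was 538 to 758, 157 to 330 and 58.6 to 72.9 CPM, and 7 rose in PDGFB and 4 in RAS tumors. Macrophages also express Npc2, Ctsb, Apoe, Abca1 and Soat1. Over 9 macrophage and microglia markers the sum was 265 to 358, 538 to 851 and 374 to 408 CPM, and over the 7 of them with no exon opposite 48.9 to 85.1, 231 to 394 and 18.7 to 23.1 CPM; of the 5 tested, 1 rose and 1 fell in PDGFB tumors and 3 rose in RAS tumors. Over 5 endothelial markers, none of which could be tested, it was 3.04 to 26.6, 22.7 to 57.0 and 5.33 to 16.8 CPM, with Cldn5 at 0 in normal brain. RAS tumor 2 held the highest sums of the RAS tumors for mature oligodendrocyte markers (336 CPM), astrocyte markers (640 CPM) and neuron markers with no exon opposite (307 CPM), and without it every call of Hmgcs1, Fdft1, Sqle and Dhcr7 given above held.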

How the data were processed

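RNA with poly(A) tails from tumors (5 PDGFB, 5 RAS) and normal brain (3 samples) had been isolated with Trizol and made into libraries with a TruSeq RNA kit, per the labels' protocols. Per the submitters' processing notes, build GRCm38 was used with STAR 2.7.9a and fastp 0.22.0; annotation and strand setting are not given in the sources used here. The authors deposited raw counts per gene, with no normalization, for 55416 genes; libraries held 13952738 to 15607754 reads in all, of which 529162 to 643055 (median 608897) were in genes. The table's summary lines for unmapped, multimapping, unassigned and ambiguous reads name no gene and stayed out of library sizes and tests; 95.2% to 95.7% of uniquely mapped reads were in no gene. Groups came from the titles of the tumors and the tissue label of the normal samples. GENCODE M21 held 52135 of the genes, and exons were compared between strands with its annotation; reads of genes opposite each other were set side by side over the whole table, a check added after the data were seen.

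Counts were tested in R 4.3.3 with edgeR 4.0.16: filterByExpr (minimum count 10, minimum total 15) left 7722 genes, TMM factors set the scale (0.908 to 1.11), and the 13 libraries were fitted together, 1 coefficient a group, for 3 two-sided quasi-likelihood comparisons; the threshold was 0.05 after Benjamini-Hochberg adjustment. A gene could pass the filter through a single group where it was high, and the filter then favoured the direction of its call. CPM divides reads by the gene total times the TMM factor. Replicates of a group differed by more than sampling noise (lowest chi-square per degree of freedom 1.69 over 23 pairs). The code was tested on simulated data. The 7 genes, the 5 pathway lists and the 6 marker lists were chosen with earlier results of these data known, so no test was made over a list; some list genes are not reported here and entered no list count, median or sum. Genes named from the lists are those called in at least 1 comparison, at most 10 a list by absolute log2 fold change; similar genes are the 2 with the highest correlation of log2 CPM (prior count 2), leaving out predicted genes and those that overlap the gene; and markers at 0 in a group. Alternatives were library totals, median-of-ratios factors, a filter of 1 CPM in 5 libraries, no filter, DESeq2 1.42.0, limma-voom (limma 3.58.1), only the groups compared, a replicate block, genes with no exon opposite, both rows added, each library left out and a threshold of 0.01.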

Additional observations from a re-analysis of the deposited data

Results flagged for a closer look

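In groups of 5 tumors, 44 groups over 22 named genes were checked for a library far from the rest; 4 had one, where chance gives about 1 in 20. Insig1 was lowest in RAS tumor 5 at 3.35 CPM, Mbtps1 was lowest in RAS tumor 5 at 16.8 CPM, Gm48342 was highest in PDGFB tumor 4 at 1843 CPM, and Cyp46a1 was highest in RAS tumor 4 at 6.73 CPM.

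PDGFB and RAS tumors differed in the same fit for 11 named genes (edgeR, adjusted p at most 0.0487). The log2 fold changes of PDGFB against RAS tumors were positive for Hmgcs1 (0.89), Gm48342 (1.20) and Lrp8 (1.30). They were negative for Fdft1 (−1.59), Ctsb (−1.75), Npc1 (−1.06), Npc2 (−2.003), Apoe (−1.93), Soat1 (−1.35), Lrp1 (−0.65) and Clu (−0.84).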

How the results depend on the processing

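Over 1293 alternative values of the named genes, the 37 called values had 770, of which 710 kept the call, 60 lost it and 0 turned sign; of the 523 of the 26 uncalled values, 460 kept direction and side, 23 were called and 40 turned sign. Of the 6 genes tested, 1 was called in PDGFB tumors against normal brain with library totals, with no filter, with the 1 CPM filter, over genes with no exon opposite and at 0.01 (1 to 2 without 1 library). In RAS tumors against normal brain 3 were called, against 4, with only these groups, and 2 over genes with no exon opposite and at 0.01 (2 to 4 without 1 library). In PDGFB against RAS tumors 3 were called, against 2, with library totals and in limma-voom, 1 with only these groups, with the replicate block and at 0.01, and 0 over genes with no exon opposite (edgeR; 3 were then tested, without Hmgcs1 and Fdft1, 2 of them with an unadjusted p under 0.05), against 1 to 3 without 1 library. Over genes with no exon opposite 1287, 1675 and 926 genes were called, against 3498, 4340 and 2476, since fewer genes are tested; at 0.01, 1465 were called between the tumors. Library totals moved the median of all genes by 0.23, 0.09 and 0.14 log2 units, and the share of calls that were higher to 56.8%, 51.5% and 57.3%, against 44.5%, 47.9% and 45.6%.

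Signs turned only in uncalled values, and the cause was not tested. In PDGFB tumors against normal brain, Srebf2 was −0.0040, −0.0030 and −0.032 with median-of-ratios factors, DESeq2 and limma-voom (−0.25 to 0.37 without 1 library), Hmgcs1 0.079 with library totals (−0.26 to 0.039), Insig1 0.23, 0.11 and 0.12 with library totals, no filter and the 1 CPM filter (−0.032 to 0.25), and Ctsb −0.027 to 0.23 without 1 library. Without 1 library, Srebf2 was −0.093 to 0.43 in RAS tumors against normal brain. In PDGFB against RAS tumors, Srebf2 was 0.043 with library totals and 0.017 over genes with no exon opposite (−0.35 to 0.18), Rnf139 0.11, 0.040 and 0.044 with library totals, no filter and the 1 CPM filter (−0.14 to 0.043), and Cyp46a1 −0.63 to 0.48 without 1 library.

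Tumors of the 2 groups share replicate numbers, and whether the numbers pair them is not stated. Deviations of same-numbered tumors correlated at −0.13 to 0.14, above 0.1 in 1 of 5 pairs, and 1 of 5 tumors correlated best with its own number. With so few pairs these values cannot settle whether tumors were paired. The block fit held the tumors only and called 1705 genes between them, against 1829 with only the tumors and no block and 2476 in the main fit. With the block the log2 fold change was 0.91 for Hmgcs1 (adjusted p = 0.0872, edgeR), −0.61 for Lrp1 (0.0742) and −0.78 for Clu (0.0579). These calls were already lost with only the tumors and no block (0.0521, 0.0541 and 0.0725). Lrp8 and Soat1 did not pass the low-count filter in the block fit, and no other named call was lost there. Small counts limit Dhcr7, Insig1, Srebf2 and Fdps most, and the unstated strand of the counts limits every gene.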
